A study of Homo sapiens with 12 samples.

Results

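Expression of 10 genes of the NF-κB system was described in SU-DHL-4, an established human cell line of diffuse large B-cell lymphoma (DLBCL). The genes were taken by symbol from the count table, which lists 46863 symbols, and not by a threshold on their response. Earlier results of these data were known when they were chosen. They comprised the 5 subunits of the transcription factor (NFKB1, NFKB2, REL, RELA and RELB) and 5 inhibitor and feedback genes (NFKBIA, NFKBIE, NFKBIZ, TNFAIP3 and BIRC3). All 10 had a row in the table and 9 passed the filter on low counts, NFKBIZ being the exception.

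The cells were exposed for 72 h to the vehicle DMSO, to 1 µM Entospletinib (Ento), an inhibitor of the kinase SYK, to 0.01 µM AZD5153 (AZD), a bivalent inhibitor of BET proteins, or to both agents at these concentrations (Ento+AZD). Polyadenylated RNA of 3 libraries per group, 12 in all, was sequenced. All libraries came from a single cell line, with no gene edited or introduced for the comparison, so each value describes these cultures only. The comparisons ask how each single agent and the combination change expression, and whether the combination differs from either single agent.

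NF-κB factors are dimers of REL-homology proteins. In resting cells, inhibitors of the IκB family hold them in the cytoplasm. After receptor signals, IκB kinase marks the inhibitors for degradation, and the dimers enter the nucleus. Several of their target genes encode the inhibitors themselves or enzymes that switch the upstream signal off, which forms a negative feedback. In B cells the B-cell receptor, with SYK close to the receptor and BCL10 and MALT1 further on, is one of the inputs.

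Total counts per library lay between 18121993 and 24675830. Levels are given as CPM, counts scaled to a common library size with TMM factors, where 1 count corresponded to between 0.0393 and 0.0564 CPM. All 7 germinal-centre B-cell markers were detected, with a summed level of 3986 to 5793 CPM per library with DMSO, 4738 to 7129 with Ento, 4941 to 6912 with AZD and 5339 to 6842 with Ento+AZD. The 5 T-cell markers, of which 2 were at 0 in every library, summed to 5.34 to 6.28 CPM with DMSO, 4.45 to 7.78 with Ento, 1.60 to 3.34 with AZD and 1.62 to 2.54 with Ento+AZD. The 5 myeloid markers, of which 1 was at 0 throughout, summed to 0.442 to 2.72 CPM over the 12 libraries. The 5 stromal or epithelial markers, 2 at 0 throughout, summed to 16.9 to 44.7 CPM with DMSO, 35.1 to 83.9 with Ento, 11.5 to 49.2 with AZD and 36.2 to 87.5 with Ento+AZD. Nearly all of this last sum was PECAM1, an adhesion molecule of endothelial and blood cells, at 11.5 to 87.3 CPM. PECAM1 was called higher than with DMSO for Ento (log2 fold change 0.84, adjusted p = 0.0111 in edgeR) and Ento+AZD (0.81, 0.00261), and for neither without the replicate block (0.569 and 0.286). All libraries were of 1 cell line, so these are levels of marker genes in SU-DHL-4 cultures and not counts of other cell types. The part of these marker differences in any result below was not tested. In bulk RNA, fewer cells that express a gene and less of its RNA per cell cannot be told apart.

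The subunit genes NFKB1, NFKB2, RELA, RELB and REL were all expressed in all 12 libraries, and none passed the test in any comparison. NFKB1 (chr4:102501330-102617302 of GRCh38, plus strand) encodes p105, the precursor of the DNA-binding subunit p50. Its level in replicates 1 to 3 was 98.3, 115 and 103 CPM with DMSO, 122, 106 and 127 with Ento, 106, 107 and 116 with AZD, and 109, 96.5 and 115 with Ento+AZD. The groups overlapped. The mean of NFKB1 was lowest in the DMSO group (106 ± 8.78 CPM, SD, n = 3) and highest in the Ento group (119 ± 10.9 CPM). NFKB2 (chr10:102394110-102402524, plus strand) encodes p100, which retains RELB in the cytoplasm until it is processed to p52. It stood at 23.1, 26.7 and 36.0 CPM with DMSO, 21.2, 26.8 and 26.7 with Ento, 25.8, 21.9 and 25.1 with AZD, and 24.99, 27.2 and 23.9 with Ento+AZD. DMSO replicate 3 held the highest NFKB2 value of all 12 libraries, and the other 11 lay between 21.2 and 27.2 CPM.

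RELA (chr11:65653599-65663090, minus strand) encodes p65, the main activating subunit of the classical pathway. It was the steadiest member, with 66.8, 74.1 and 70.3 CPM with DMSO, 66.8, 76.6 and 69.7 with Ento, 67.6, 76.7 and 75.7 with AZD, and 73.7, 79.4 and 79.4 with Ento+AZD. Within each replicate number Ento+AZD held the highest RELA level of the 4 groups, although the group ranges overlapped. REL (chr2:60881491-60931612, plus strand) encodes c-Rel, the subunit best known from lymphoid cells and often amplified in B-cell lymphomas. It had the highest CPM of the members, with 244, 261 and 352 CPM with DMSO, 293, 254 and 268 with Ento, 353, 241 and 319 with AZD, and 276, 311 and 309 with Ento+AZD. DMSO and AZD libraries of REL spread over the same wide range. RELB (chr19:45001461-45038192, plus strand), whose product pairs with p52 in the alternative pathway, stood at 29.4, 28.0 and 44.5 CPM with DMSO, 34.6, 34.6 and 41.2 with Ento, 44.3, 29.1 and 41.8 with AZD, and 45.8, 40.6 and 40.2 with Ento+AZD. The lowest Ento+AZD library of RELB lay above DMSO replicates 1 and 2 but below DMSO replicate 3. Exons of RELA overlap those of RELA-DT on the opposite strand, and reads of the pair cannot be told apart. REL shares exon positions with ENSG00000267520 on the same strand.

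**Figure D1:**
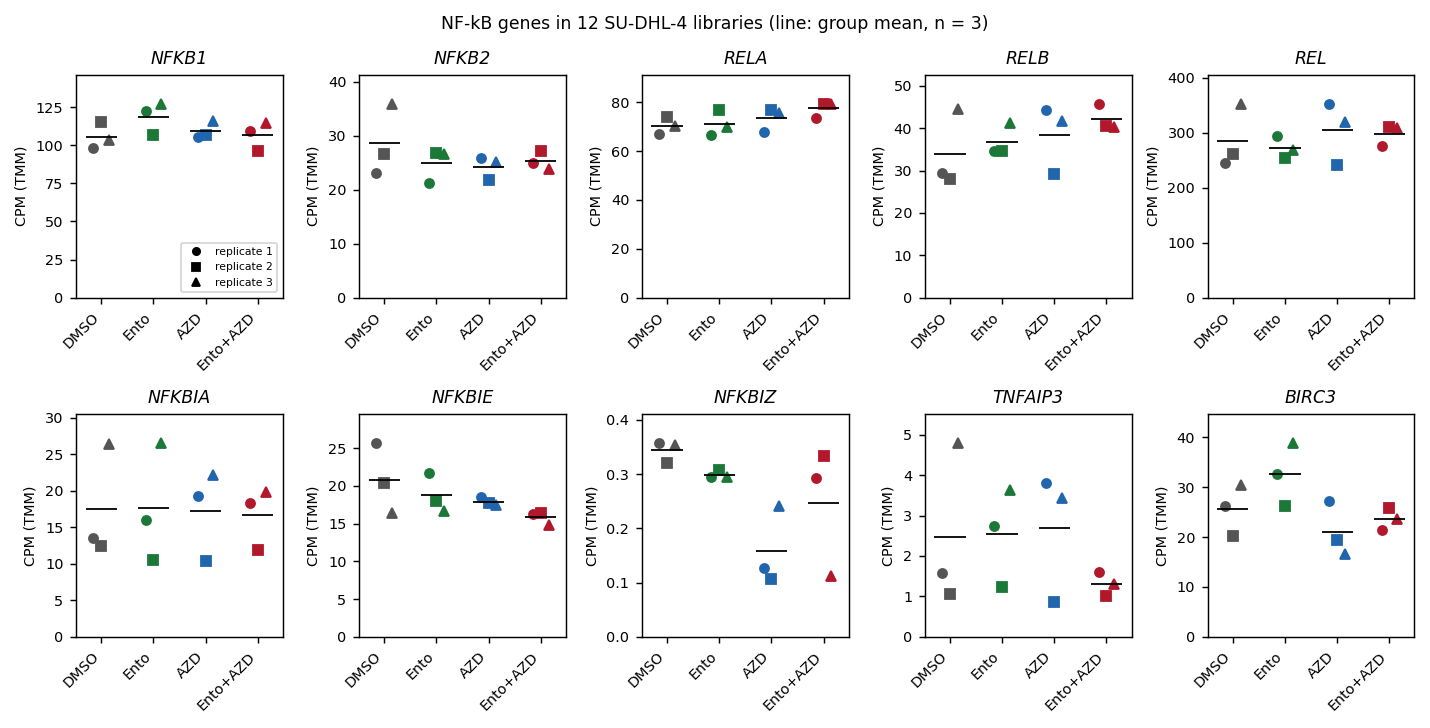
TMM-normalized CPM (y axis, from 0) of the 10 NF-κB genes in the 4 exposure groups, with 1 point per library, the symbol giving the replicate number and the line the group mean (n = 3). NFKBIA and TNFAIP3 spread by replicate number within the groups, TNFAIP3 lies between 1.00 and 1.61 CPM in the 3 Ento+AZD libraries, and the 3 Ento+AZD libraries of NFKBIE lie below all DMSO libraries.

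Of the inhibitors, NFKBIA (chr14:35401079-35404749, minus strand) encodes IκBα, the fast feedback inhibitor. Its level was 13.6, 12.5 and 26.4 CPM with DMSO, 16.1, 10.5 and 26.6 with Ento, 19.3, 10.4 and 22.2 with AZD, and 18.4, 11.9 and 19.9 with Ento+AZD. In every group replicate 2 was the lowest and replicate 3 the highest, and the 4 group means differed by at most 1.06-fold, from 16.7 ± 4.28 to 17.7 ± 8.17 CPM (SD, n = 3). NFKBIE (chr6:44258166-44265788, minus strand) encodes IκBε, a slower feedback inhibitor with a role in B cells. Its 3 libraries stood at 25.7, 20.4 and 16.4 CPM with DMSO, 21.7, 18.02 and 16.7 with Ento, 18.5, 17.7 and 17.5 with AZD, and 16.3, 16.4 and 14.8 with Ento+AZD. The 3 Ento+AZD libraries were the lowest of all 12 for NFKBIE, by a narrow margin, since the highest of them (16.39 CPM) lay just under the lowest DMSO library (16.43 CPM). The DMSO libraries alone spanned most of the range. NFKBIZ (chr3:101827991-101861022, plus strand) encodes the nuclear protein IκBζ, which acts on a subset of NF-κB targets. It was close to the detection limit, with 9, 7 and 9 counts in the DMSO libraries, 7, 6 and 6 with Ento, 3, 2 and 5 with AZD, and 6, 7 and 2 with Ento+AZD. The AZD libraries of NFKBIZ, at 0.126, 0.107 and 0.242 CPM, lay below all DMSO libraries, and so did the Ento libraries at 0.294, 0.307 and 0.295 CPM, while the Ento+AZD libraries overlapped both groups. The highest Ento library of NFKBIZ (0.307 CPM) and its lowest DMSO library (0.321 CPM) lay closer than 1 count, which was at least 0.0393 CPM. Of all tested genes, a set without NFKBIZ, 12.7% lay wholly below DMSO with AZD and 7.08% with Ento. With 69 counts in all 12 libraries, and with exons that overlap those of NXPE3, NFKBIZ was not tested, and in a fit without the filter its change with AZD was −1.10 on the log2 scale (SE 0.60) with an adjusted p of 0.273 in edgeR.

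TNFAIP3 (chr6:137867214-137883314, plus strand) encodes A20, a ubiquitin-editing enzyme that shuts the pathway off and is a tumor suppressor in B-cell lymphoma. It was low and uneven, with 1.59, 1.05 and 4.79 CPM with DMSO, 2.73, 1.23 and 3.63 with Ento, 3.79, 0.855 and 3.44 with AZD, and 1.61, 1.00 and 1.30 with Ento+AZD. Replicate 2 was the lowest TNFAIP3 library of every group, and the 3 Ento+AZD libraries lay together at the low end. The counts behind these TNFAIP3 values ran from 16 to 122 per library, and its exons overlap those of WAKMAR2 on the opposite strand. BIRC3 (chr11:102317484-102339403, plus strand) encodes cIAP2, a ubiquitin ligase of TNF receptor signaling. Its exons overlap those of ENSG00000288528 on the opposite strand. BIRC3 stood at 26.3, 20.2 and 30.4 CPM with DMSO, 32.5, 26.3 and 38.9 with Ento, 27.2, 19.3 and 16.6 with AZD, and 21.3, 25.8 and 23.6 with Ento+AZD. Ento held the highest BIRC3 level in every replicate number, and each Ento library exceeded each Ento+AZD library.

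No member passed the test with either single agent. The test was the quasi-likelihood test of edgeR, with p-values adjusted over all tested genes by the method of Benjamini and Hochberg, and a gene was called at an adjusted p under 0.05. Against DMSO, 0 of 9 members were called with Ento, where 8.32% of the 16835 tested genes were called, and 0 of 9 with AZD, where 22.2% were called. At an unadjusted p under 0.05 the counts were 0 and 0 as well, beside 24.3% and 36.1% of all tested genes, and DESeq2 and limma voom also called 0 members in both comparisons. The median log2 fold change over the 9 members was 0.01 with Ento and 0.05 with AZD, and over all tested genes 0.01 and 0.01. For the 5 subunits the 95% intervals against DMSO reached from −0.47 to 0.42 on the log2 scale with Ento and from −0.50 to 0.47 with AZD. These are the outermost bounds over the 5 genes and not the interval of any 1 subunit. Each subunit's own interval included 0, and only changes within that interval could not be told from none. The highest Ento value was that of BIRC3, at a log2 fold change of 0.34 (SE 0.17, adjusted p = 0.228 in edgeR's test), with BIRC3 higher in 3 of 3 replicate pairs and overlapping ranges. In the AZD comparison BIRC3 was at −0.28 (SE 0.17, adjusted p = 0.269), lower in 2 of 3 pairs. The 95% bounds for TNFAIP3 were wider, from −0.61 to 0.77 with Ento and from −0.52 to 0.85 with AZD. Leaving out DMSO replicate 2 brought NFKB1 past the threshold with Ento, at 0.29 (adjusted p = 0.0391), and leaving out AZD replicate 1 did so for BIRC3 with AZD, at −0.51 (adjusted p = 0.0477), while without AZD replicate 3 BIRC3 was at −0.04 (0.902) in that comparison.

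With the combination 1 member, NFKBIE, passed the test. NFKBIE fell by 0.38 on the log2 scale (SE 0.11), which is 1.30-fold lower than with DMSO, with an adjusted p of 0.0132 in edgeR's quasi-likelihood test. NFKBIE was lower in 3 of 3 replicate pairs and the ranges of the groups did not overlap, as for 20.0% of all tested genes in this direction. The count of 1 of 9 members stood beside 40.0% of all tested genes called against DMSO, with 20.8% of all tested genes called lower. The NFKBIE call was lost without the replicate number as a block (adjusted p = 0.0973), without DMSO replicate 1 (0.0809), without Ento+AZD replicate 1 (0.0997) and with only the DMSO and Ento+AZD libraries in the fit (0.0505). Over these and all other alternatives the change of NFKBIE ranged from −0.49 to −0.27 on the log2 scale and its adjusted p from 0.00404 to 0.0997.

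At an unadjusted p under 0.05 there were 3 members with the combination, NFKBIE, RELB and TNFAIP3, beside 48.4% of all tested genes. RELB and TNFAIP3 did not pass the adjusted threshold in edgeR's test. For RELB the log2 fold change was 0.34 (SE 0.14, 95% interval 0.05 to 0.63, adjusted p = 0.0627), with RELB higher in 2 of 3 pairs. For TNFAIP3 it was −0.79 (SE 0.36, interval −1.56 to −0.03, adjusted p = 0.0931), with TNFAIP3 lower in 2 of 3 pairs. Which library entered the fit decided both values. RELB passed without AZD replicate 1 (adjusted p = 0.0396), DMSO replicate 3 (0.00831) or Ento+AZD replicate 3 (0.0188), and TNFAIP3 without DMSO replicate 1 (0.0112) or Ento+AZD replicate 2 (0.0369). RELB was smaller, at 0.20, without DMSO replicate 1 (0.291), and TNFAIP3 at −0.21 without DMSO replicate 3 (0.677) and at −0.37 without Ento+AZD replicate 3 (0.508). RELA, at 0.14 (SE 0.07, adjusted p = 0.116), was higher in 3 of 3 pairs. NFKB1, NFKB2, REL, NFKBIA and BIRC3 had log2 fold changes between −0.16 and 0.07 in the combination.

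**Figure D2:**
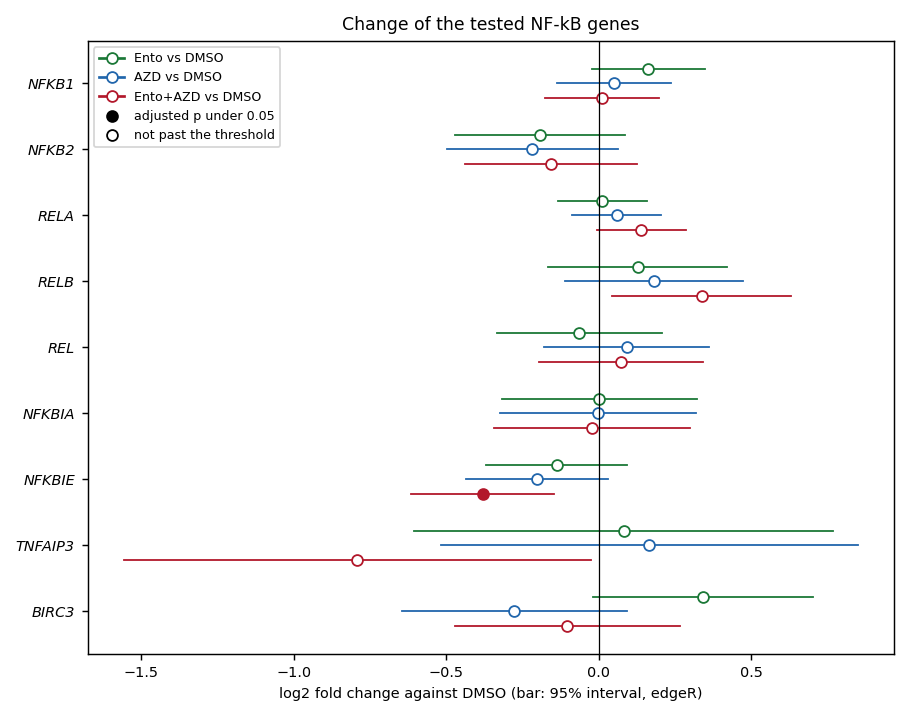
Log2 fold changes against DMSO (x axis) of the 9 tested NF-κB genes (y axis), with 95% intervals from edgeR, for Ento (green), AZD (blue) and Ento+AZD (red); filled points have an adjusted p under 0.05. The filled point is NFKBIE with Ento+AZD at −0.38, and the intervals of TNFAIP3 are the widest.

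The combination was then set against each single agent, comparisons that share the Ento+AZD libraries with each other and with the one above. Against Ento, 0 of 9 members were called in edgeR's test, beside 20.4% of all tested genes. At an unadjusted p under 0.05 there were 3 members, NFKBIE, TNFAIP3 and BIRC3, all lower, beside 34.2% of all genes, while DESeq2 called 1, BIRC3, and limma voom 0. For BIRC3 the log2 fold change was −0.45 (SE 0.17, adjusted p = 0.0807), and its ranges did not overlap, as for 11.7% of all tested genes in this direction. BIRC3 passed without AZD replicate 1 (adjusted p = 0.0386), Ento+AZD replicate 2 (0.0223) or AZD replicate 3 (0.0438), and was at −0.29 without Ento+AZD replicate 1 (0.343). TNFAIP3 was at −0.87 (SE 0.36, adjusted p = 0.1004), lower in 3 of 3 pairs, and passed without DMSO replicate 1 (0.0483), Ento+AZD replicate 2 (0.0492) or DMSO replicate 3 (0.0392), while without Ento+AZD replicate 3 it was at −0.47 (0.467). NFKBIE was at −0.24 (SE 0.11, adjusted p = 0.137), again with ranges apart.

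Against AZD, 0 of 9 members were called, beside 11.9% of all tested genes, and 1, TNFAIP3, had an unadjusted p under 0.05, beside 28.0%. DESeq2 and limma voom called 0. TNFAIP3 was at −0.96 on the log2 scale (SE 0.36, adjusted p = 0.0946 in edgeR's test), lower in 2 of 3 pairs, and passed without DMSO replicate 1 (0.0475) or DMSO replicate 3 (0.0356). It was at −0.55 without AZD replicate 1 (0.451) and −0.56 without Ento+AZD replicate 3 (0.401). NFKBIE, at −0.18 (SE 0.11, adjusted p = 0.322), had ranges apart in this comparison too, as for 7.99% of all genes in this direction.

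The single agents differed from each other in BIRC3. BIRC3 was 1.54-fold higher with Ento than with AZD (log2 fold change 0.62, SE 0.17, adjusted p = 0.0264 in edgeR's quasi-likelihood test), in 3 of 3 replicate pairs and with overlapping ranges. It was the 1 member called of 9, beside 14.7% of all tested genes, with 8.99% of all tested genes called higher with Ento. The BIRC3 call was lost without the replicate block (adjusted p = 0.133) and without Ento replicate 1 (0.0721), AZD replicate 2 (0.0795), Ento replicate 3 (0.155) or AZD replicate 3 (0.188). Its value was 0.48 without Ento replicate 3 and 0.38 without AZD replicate 3, and over all alternatives its adjusted p ran from 1.3e-06 to 0.188.

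The interaction term asks whether the change with both agents departs from the sum of the single-agent changes on the log2 scale. It was called for 0 members and for 0.00% of all tested genes in edgeR's test, and for 0 members with DESeq2 and limma voom. At an unadjusted p under 0.05 there was 1 member, TNFAIP3, beside 9.81% of all genes. Its interaction was −1.04 (SE 0.48, adjusted p = 0.505 in edgeR's test), and with 1 library left out it ran from −1.66 (DMSO replicate 3) to −0.63 (DMSO replicate 1). For the subunits the interaction values lay between −0.20 and 0.25, with intervals from −0.46 to 0.65.

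A large share of the variation of several members followed the replicate number. The sum of squares of log2 CPM over the 12 libraries was divided into treatment group, replicate number and remainder, as a description without a test. For NFKBIA 87.4% lay with the replicate number and 0.0144% with the treatment. For TNFAIP3 the shares were 60.2% and 16.7%, for RELA 54.3% and 37.9%, and for NFKBIE 37.4% and 41.8%. Of the 9 tested members BIRC3 lay at the other end, with 9.55% for the replicate number and 50.4% for the treatment. NFKBIZ, not tested and at 2 to 9 counts per library, had 0.609% and 55.2%. Over all tested genes the median shares were 28.0% for the replicate number and 42.9% for the treatment. Averaged over the 4 groups, NFKBIA was at 16.8, 11.3 and 23.8 CPM in replicates 1, 2 and 3, and TNFAIP3 at 2.43, 1.03 and 3.29 CPM, ratios of 2.10 and 3.18 between the highest and the lowest replicate. The ratios between the highest and the lowest group mean were 1.06 for NFKBIA and 2.07 for TNFAIP3. Replicate 3 had the highest mean for 7 of the 10 members, NFKBIE, RELA and NFKBIZ being the others, and for 34.8% of all tested genes. The labels do not say what a replicate number stands for, and culture, day and library preparation cannot be told apart.

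**Figure D3:**
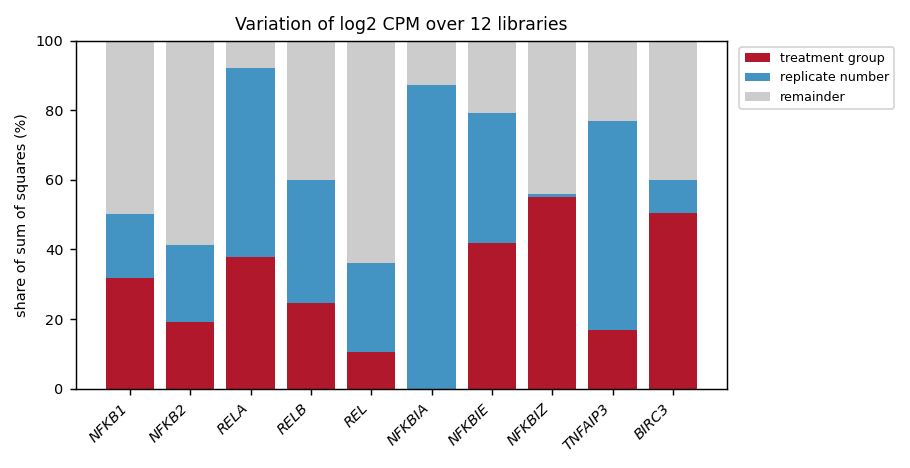
Share of the sum of squares of log2 CPM over the 12 libraries (y axis, percent) of each NF-κB gene that lies with the treatment group (red), the replicate number (blue) and the remainder (grey). The blue part is 87.4% for NFKBIA, 9.55% for BIRC3 and 0.609% for NFKBIZ, which had 2 to 9 counts per library.

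Levels of different genes were compared per length, as CPM per kb of exon, with 2 definitions of the length. Per kb of all annotated exons of a gene, REL was the highest member with DMSO at 16.7 ± 3.40 CPM per kb (SD, n = 3), followed by RELA at 12.9 ± 0.666, RELB at 11.3 ± 3.04, NFKBIE at 8.07 ± 1.80 and NFKB1 at 6.74 ± 0.560. NFKBIA at 5.14 ± 2.28 and NFKB2 at 5.12 ± 1.19 came next, then BIRC3 at 3.43 ± 0.683, TNFAIP3 at 0.385 ± 0.314 and NFKBIZ at 0.0583 ± 0.00344 CPM per kb. Neighbours in this order whose DMSO libraries did not overlap were REL and RELA, NFKB2 and BIRC3, BIRC3 and TNFAIP3, and TNFAIP3 and NFKBIZ. RELA to NFKB2 formed a run in which each overlapped the next. With the length of the MANE Select transcript, the single reference transcript of a gene, the order at the top changed to RELA at 28.0 ± 1.44, NFKB1 at 26.1 ± 2.17 and REL at 25.7 ± 5.24 CPM per kb. Between the 2 definitions the length went from 15.7 to 4.06 kb for NFKB1, from 5.46 to 2.52 kb for RELA and from 17.1 to 11.1 kb for REL. BIRC3, TNFAIP3 and NFKBIZ were the 3 lowest members, in this order, under both lengths. REL ranked first and RELA second per kb of all exons in each of the 4 groups.

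**Figure D4:**
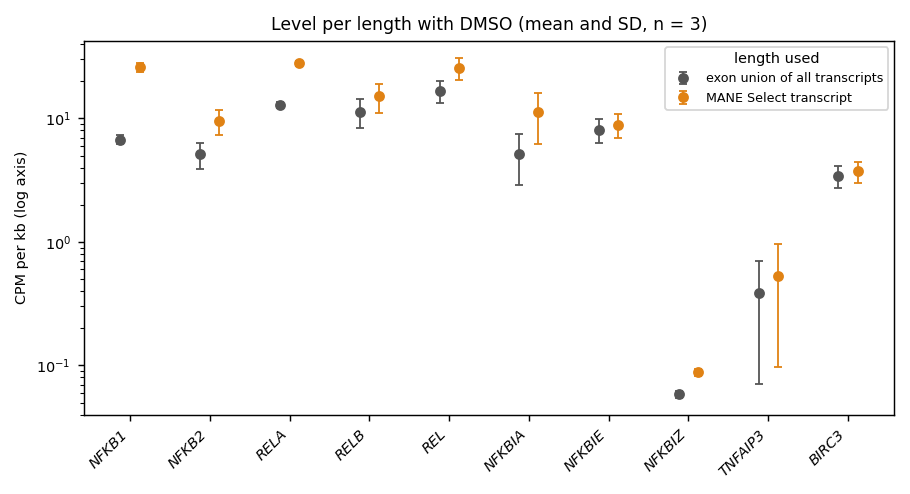
CPM per kb with DMSO (y axis, log scale; points are means and bars SD, n = 3) of the 10 NF-κB genes, with the length taken as all annotated exons (grey) or as the MANE Select transcript (orange). REL and RELA are high under both lengths, NFKB1 moves from 6.74 to 26.1, and TNFAIP3 and NFKBIZ are low under both.

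What the members share in sequence was described in their promoter windows, from 250 bases before to 50 after an annotated start (RefSeq, GRCh38.p14). Windows were at hand for 8 members, 13 windows in all, and RELB and NFKBIE had no entry. NF-κB dimers bind κB elements, which open with G bases and close with C bases. A loose form, GGG, any 5 bases and CC on either strand, occurred in all 8 members but also in 61.7% of the 27305 genes with a window. A stricter form chosen after the windows were seen, GGG, any 2 bases and TTTCC on either strand, is contained in the loose form and occurred in 7 of the 8 members, RELA being the exception, and in 2.33% of the 27305 genes. A match describes letters and not a bound site, and no binding was measured here. The stretches around it are shown for 1 subunit and 4 inhibitor or feedback genes, to set the same element beside genes of very different level. They are written 5′ to 3′ on the strand of the gene, with the match in capitals, and where the capitals begin with GGAAA the match is on the opposite strand.
NFKB1 (chr4:102501300-102501329, plus strand): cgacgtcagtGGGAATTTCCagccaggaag
NFKBIA (chr14:35404796-35404855, minus strand): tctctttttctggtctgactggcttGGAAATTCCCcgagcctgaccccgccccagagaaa
NFKBIZ (chr3:101827742-101827801, plus strand): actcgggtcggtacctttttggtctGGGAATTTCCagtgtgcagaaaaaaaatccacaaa
TNFAIP3 (chr6:137867182-137867211, plus strand): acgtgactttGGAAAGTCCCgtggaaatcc
BIRC3 (chr11:102317260-102317319, plus strand): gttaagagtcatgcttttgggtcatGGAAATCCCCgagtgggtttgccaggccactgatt

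Counted from the annotated start, the match lay at −49 to −40 in NFKB1, −81 to −72 in NFKBIA, −223 to −214 in NFKBIZ, −67 to −58 in TNFAIP3 and −199 to −190 in BIRC3, and TNFAIP3 held another at −55 to −46. NFKB1 and NFKBIZ carried the same letters in the match, and with DMSO these genes stood at 6.74 and 0.0583 CPM per kb of all exons.

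Around the members, the other genes of the pathway were read from 5 lists. These were upstream kinases and adaptors, the alternative pathway, linear ubiquitin enzymes with other brakes on the pathway, further inhibitors of the IκB family, and known targets. The counts stand beside 4.66% of all tested genes called higher and 3.66% lower with Ento, 9.57% and 12.7% with AZD, and 19.2% and 20.8% with Ento+AZD, and the median log2 fold change of all tested genes was 0.01 in each. IKBKB, TAB1, RIPK1, PRKCB, TNFRSF13C, CD40, TRAF2, RNF11, RNF31, SHARPIN, CYLD, OTULIN, NFKBID, CD83, TNF, BCL2L1, CCND2 and JUNB are named because they were called. Of 18 genes upstream of NF-κB, among them BCL10, MALT1, the IκB kinases and their adaptors, 18 were tested. With Ento 1 rose (IKBKB, the kinase IKKβ) and 2 fell (MALT1 and TAB1), with AZD 1 rose (RIPK1), and with Ento+AZD 3 rose (IKBKB, RIPK1 and PRKCB) and 2 fell (MALT1 and TAB1), with list medians of 0.03, 0.04 and 0.03 on the log2 scale. MALT1, a protease that cleaves A20, was at −0.34 (SE 0.08, adjusted p = 0.0220) with Ento and −0.35 (SE 0.08, adjusted p = 0.00498) with Ento+AZD. The Ento call for MALT1 was lost without any 1 of DMSO replicates 1 and 3 and Ento replicates 1, 2 and 3, at adjusted p from 0.0609 to 0.0883, and without the replicate block (0.175). With TAB1, a partner of the kinase TAK1, the calls ended when any 1 of 9 libraries (Ento, adjusted p from 0.0538 to 0.154) or any 1 of 12 (Ento+AZD, 0.0563 to 0.207) was left out. The calls of IKBKB with Ento (0.0673 to 0.150) and PRKCB with Ento+AZD (0.0943 to 0.102) each depended on 3 libraries, and that of RIPK1 with AZD on AZD replicate 3 (0.0832). Without the block the list had 0 calls with Ento and AZD, and 2 rises and 1 fall with Ento+AZD. Beside these, 36, 326 and 2398 of all 16835 tested genes were called without the block with Ento, AZD and Ento+AZD. BCL10, an adaptor, stood between 12.3 and 20.2 CPM over the 12 libraries and was not called against DMSO, with a smallest adjusted p of 0.0555.

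Of 8 alternative-pathway genes 7 were tested. With Ento 3 rose (MAP3K14, TNFRSF13C and CD40) and 0 fell, with AZD 1 fell (TRAF2), and with Ento+AZD 2 rose (TNFRSF13C and CD40) and 1 fell (TRAF2), with medians of 0.27, 0.00 and 0.10. MAP3K14, which encodes the kinase NIK that drives p100 processing, was at 0.29 (SE 0.08, adjusted p = 0.0457) with Ento, a call that ended when any 1 of 10 of the 12 libraries was left out (adjusted p from 0.0553 to 0.225) or the replicate block was dropped (0.393). TNFRSF13C, the BAFF receptor, lost its Ento call when any 1 of 9 libraries was left out (0.0548 to 0.286), and CD40, a receptor of T-cell help, lost its Ento call without Ento replicate 2 (0.0794). TRAF2 with AZD depended on 3 libraries (0.0635 to 0.0933). Without the replicate block all rises of this list were lost, TNFRSF13C at 0.649 with Ento and 0.166 with Ento+AZD and CD40 at 0.475 and 0.0573, and so was TRAF2 with AZD (0.171). That fit called 36, 326 and 2398 of all 16835 tested genes with Ento, AZD and Ento+AZD. Of 14 genes of linear ubiquitin enzymes and other brakes on the pathway, RNF11 among the latter, 12 were tested. With Ento 0 were called, with AZD 1 rose (RNF11), and with Ento+AZD 3 rose (RNF31, SHARPIN and CYLD) and 1 fell (OTULIN), with medians of −0.08, 0.07 and −0.01. Each of these calls ended with libraries left out, 9 of the 12 for CYLD (0.0573 to 0.238), 3 each for RNF11 (0.0642 to 0.189), SHARPIN (0.0926 to 0.138) and OTULIN (0.0843 to 0.122), and Ento+AZD replicate 3 for RNF31 (0.0761), and all 5 ended without the replicate block (0.0783 to 0.141). Of the 3 further inhibitor genes NFKBID alone was called, at 0.55 (SE 0.13, adjusted p = 0.0194) with Ento and 0.66 (SE 0.13, adjusted p = 0.00133) with Ento+AZD. NFKBIB stood between 11.6 and 18.9 CPM and BCL3 between 14.2 and 18.8 CPM, and neither was called, with smallest adjusted p of 0.344 and 0.613. The Ento call for NFKBID was lost without DMSO replicate 1 (0.0573), Ento replicate 1 (0.0639), DMSO replicate 2 (0.0711), Ento replicate 2 (0.125) or the replicate block (0.241).

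Of 25 known NF-κB targets outside the members 17 were tested. With Ento 2 rose (LTB and CD83) and 2 fell (TNFAIP2 and TRAF1). With AZD 2 rose (TNF and CD83) and 7 fell (BCL2A1, TNFAIP2, TRAF1, CFLAR, BCL2L1, CCND2 and JUNB). With Ento+AZD 2 rose (LTB and CD83) and 8 fell, the same 7 and TNF. The medians were −0.15, −0.35 and −0.57 with Ento, AZD and Ento+AZD. LTB, which encodes lymphotoxin β, was at 9.94, 14.0 and 7.23 CPM with DMSO, 31.2, 62.5 and 34.1 with Ento, 14.9, 14.7 and 10.4 with AZD, and 27.4, 34.7 and 19.8 with Ento+AZD. LTB rose by 2.03 on the log2 scale with Ento (SE 0.15, adjusted p = 4.82e-06) and by 1.41 with Ento+AZD (SE 0.15, adjusted p = 1.55e-05). TRAF1, a signaling adaptor that binds cIAP2, fell by 1.06 with Ento, by 0.65 with AZD and by 1.02 with Ento+AZD, and BCL2A1, an anti-apoptotic BCL2 relative, fell by 0.71 with AZD and by 1.35 with Ento+AZD. CFLAR, which encodes the caspase-8 inhibitor c-FLIP, fell by 1.02 with AZD and by 0.45 with Ento+AZD. TNFAIP2 fell by 2.05, 1.42 and 2.23 with Ento, AZD and Ento+AZD on 3 to 52 counts per library. TNF, a cytokine, rose by 1.20 with AZD and fell by 1.22 with Ento+AZD, on 2 to 38 counts.

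Without the replicate block the known targets had 1 rise and 0 falls with Ento, 0 and 1 with AZD, and 1 and 3 with Ento+AZD. Over all 16835 tested genes the calls in that fit were 36, 326 and 2398, so most calls were lost there too with Ento and AZD. The calls lost in that fit included TNFAIP2 with Ento (adjusted p = 0.171) and AZD (0.145), TRAF1 with Ento (0.0582) and AZD (0.110), BCL2A1 with AZD (0.368) and Ento+AZD (0.0501), CFLAR with Ento+AZD (0.129), and TNF with AZD (0.0918) and Ento+AZD (0.0745). LTB with Ento and Ento+AZD, CFLAR with AZD, and TNFAIP2, TRAF1 and BCL2L1 with Ento+AZD were called in both fits. BCL2L1 with AZD (adjusted p = 0.146 in edgeR), and CCND2 and JUNB with AZD and Ento+AZD (0.0937 to 0.469), were not called without the block. With 1 library left out, BCL2L1 with AZD lost its call for 3 libraries (0.0517 to 0.0784) and CCND2 with Ento+AZD for 2 (0.0604 to 0.0651). CD83, a B-cell activation marker, was not called with Ento when any 1 of 5 libraries was left out (0.0717 to 0.126), or with Ento+AZD without Ento+AZD replicate 1 (0.0512), and in no exposure without the block (0.0705 to 0.296). TRAF1 with AZD was not called without AZD replicate 3 (adjusted p = 0.0526), BCL2A1 with AZD without AZD replicate 2 (0.0583) or 3 (0.0732), and CFLAR with Ento+AZD without Ento+AZD replicate 1 (0.0879), DMSO replicate 3 (0.103) or Ento+AZD replicate 3 (0.0965). TNF with AZD was not called without AZD replicate 1 (0.0515), DMSO replicate 3 (0.0517) or AZD replicate 3 (0.0558), and TNF with Ento+AZD without any 1 of the DMSO libraries or of Ento+AZD replicates 2 and 3 (0.0550 to 0.113).

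**Figure D5:**
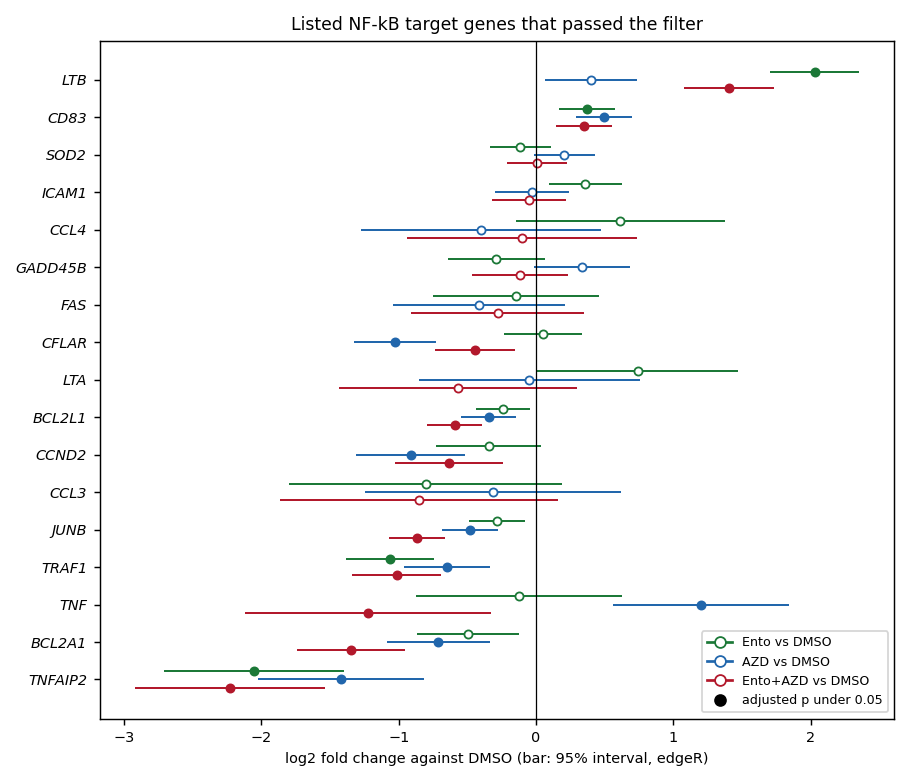
Log2 fold changes against DMSO (x axis) with 95% intervals from edgeR of the 17 tested known NF-κB targets (y axis, ordered by the Ento+AZD value) for Ento (green), AZD (blue) and Ento+AZD (red); filled points have an adjusted p under 0.05. LTB lies at 2.03 with Ento and TNFAIP2 at −2.23 with Ento+AZD, while the 9 tested members lie between −0.79 and 0.34 over the same 3 comparisons.

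Genes whose profile was most like that of the members were named as a description. After removal of the replicate number, the mean standardized profile of the 5 subunits over the 12 libraries correlated most with SETDB2-PHF11 (Pearson's r = 0.958), LOC105376707 (0.939), LOC101928576 (0.909), ZNF18 (0.906) and AMZ1 (0.903). The profile of the 4 tested feedback genes correlated most with RASAL1 (0.949), LOC105369771 (0.939), COL5A1 (0.937), VPS37D (0.936) and CBX8 (0.931). All of these points share their libraries and scaling, and they are the highest of 16835 genes by choice.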

How the data were processed

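RNA-seq of 12 SU-DHL-4 libraries was used. The authors enriched polyadenylated RNA with a kit that does not mark strand, sequenced single reads of 75 bases, trimmed and aligned them, and deposited whole-number counts per gene symbol without normalization. The submitters' processing notes name bcl2fastq 2.19, cutadapt, Trim Galore and edgeR, and the builds GRCh38.p13 and hg19 with no role. A deposited log2 table was not used, and 0 columns of the count table were left out.

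Group and replicate number came from the sample titles. edgeR 4.0.16 (R 4.3.3) was the main tool, and limma 3.58.1 and DESeq2 1.42.0 served as alternatives. Genes passed filterByExpr (minimum count 10, minimum total 15), which left 16835, and TMM factors were computed. Treatment group and replicate number entered a quasi-likelihood model, and p-values were adjusted by Benjamini-Hochberg over all 16835 genes. Intervals are 95%. The scripts were tested on simulated data. A replicate pair is 2 libraries with the same number. Deviations from the group means correlated at 0.213 to 0.703 for same-numbered libraries (18 pairs) and at −0.627 to 0.325 for others (36 pairs), so the numbers, taken from the titles, were treated as pairing them. The sample labels do not say whether libraries came from separate cultures. The paper states that its statistical data rest on 3 or more biologically independent samples, without naming the sequencing there. It gives n = 3 for the sequencing figure. P-values measure the spread between these libraries, which may be in part technical. Libraries of a group differed beyond sampling noise (chi-square per degree of freedom 9.06 to 54.1).

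Members and lists were chosen with earlier results of these data known. All 10 members were named. From each other list came at most 5 genes, those of smallest adjusted p among genes called against DMSO and changed more than 2-fold, as well as BCL10, MALT1, MAP3K14, NFKBIB and BCL3 whatever their values, and the 5 genes most like the subunits and like the feedback genes. Another gene chosen whatever its values is not reported here. Other genes named were chosen after their values were seen. Gene positions are from GENCODE (GRCh38), promoters from RefSeq. Alternatives were no block, RLE, upper-quartile or library-total scaling, no filter, a filter of 1 CPM in 6 libraries, DESeq2, limma voom, each library left out, and only the groups compared.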

Additional observations from a re-analysis of the deposited data

Results flagged for a closer look

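Among the genes named, 2 known targets differed in direction with the same agent depending on the other, in every replicate pair. The share of all tested genes with this pattern was not computed, so the 2 genes have no background to be read against. LTB was higher with AZD than with DMSO in 3 of 3 pairs and lower with Ento+AZD than with Ento in 3 of 3 pairs, and the mean effect of AZD on LTB differed between these settings by −18.3 CPM. LTB with AZD against DMSO, at a log2 fold change of 0.40, was not called. The interaction for LTB was −1.02 on the log2 scale (SE 0.21) with an unadjusted p of 0.000203 and an adjusted p of 0.444 in edgeR's test. CD83, a B-cell activation marker, was higher with Ento than with DMSO in 3 of 3 pairs and lower with Ento+AZD than with AZD in 3 of 3 pairs, a difference of −13.1 CPM. Its interaction was −0.51 (SE 0.13) with an unadjusted p of 0.00143 and an adjusted p of 0.444, so neither passed the adjusted threshold. No NF-κB subunit, inhibitor or feedback gene met this criterion.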

How the results depend on the processing

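The count of called members was read against the alternatives. Of 692 member values recomputed, 613 kept their direction and side of the threshold, 9 lost and 26 gained a call in the same direction, and 44 changed sign, with 0 sign changes where either value was called. Without the replicate block the count was 0 for Ento+AZD against DMSO and 0 for Ento against AZD, which ended the calls of NFKBIE and BIRC3. Of all 16835 tested genes, that fit called 36 with Ento, 326 with AZD, 2398 with Ento+AZD and 539 for Ento against AZD. With the block these totals were 1401, 3745, 6736 and 2478. The block changed no other member's call. Of 51 calls of pathway, T-cell and stromal genes against DMSO, 39 were lost without the block and 27 with at least 1 library left out. These losses stand beside the drop over all tested genes without the block. With 1 library left out, 427 to 1681 of all tested genes were called with Ento. The totals were 1253 to 4112 with AZD and 4879 to 6765 with Ento+AZD. With no filter the members called were 1 with Ento (BIRC3), 3 with Ento+AZD (NFKBIE, RELB and TNFAIP3), 2 for Ento+AZD against Ento and 1 against AZD. Of the 30891 genes then tested, 2294, 6900, 3849 and 2723 were called in these comparisons. With DESeq2 there was 1 for Ento+AZD against Ento, beside 3114 of all 16835 tested genes. With only the groups compared there were 1 with Ento (BIRC3), 0 with Ento+AZD, 2 for Ento+AZD against Ento and 1 against AZD. The totals over all genes tested there were 1346 of 16414, 4871 of 16198, 4428 of 16153 and 2864 of 15989. The causes of these shifts were not tested. With each library left out the counts ran from 0 to 1 with Ento, 0 to 1 with AZD, 0 to 2 with Ento+AZD, 0 to 2 for Ento+AZD against Ento, 0 to 1 against AZD and 0 to 1 for Ento against AZD. The last 3 stand beside 1402 to 4083, 595 to 2613 and 1152 to 3028 calls over all tested genes. Values near 0 that changed sign were, for Ento, NFKBIA with RLE (−0.00338), library totals (−0.0313) and DESeq2 (−0.00653) and RELA with library totals (−0.0204), for AZD, NFKB1 with library totals (−0.00807) and NFKBIA with limma voom (0.0118) and only the groups compared (0.00229), and for Ento+AZD, NFKBIA with upper quartile (0.00392) and NFKB1 with library totals (−0.0407). With each library left out the Ento values ran from −0.0137 to 0.0373 for RELA, −0.000845 to 0.31 for RELB, −0.20 to 0.0794 for REL, −0.18 to 0.12 for NFKBIA and −0.33 to 0.68 for TNFAIP3. The AZD values ran from −0.0125 to 0.18 for NFKB1, −0.0608 to 0.24 for REL, −0.20 to 0.12 for NFKBIA and −0.26 to 0.77 for TNFAIP3. The Ento+AZD values ran from −0.0537 to 0.13 for NFKB1, −0.27 to 0.0182 for NFKB2, −0.0614 to 0.22 for REL, −0.22 to 0.14 for NFKBIA and −0.30 to 0.0436 for BIRC3. With the MANE Select length, added after the data were seen, levels with DMSO were 26.1 CPM per kb for NFKB1, 9.48 for NFKB2, 28.0 for RELA, 15.1 for RELB, 25.7 for REL, 11.2 for NFKBIA and 0.0877 for NFKBIZ. Scaling shifted the median log2 fold change of all genes by at most 0.06, in library totals with AZD. Depth limited NFKBIZ, at 2 to 9 counts per library.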
